A study of Mus musculus with 6 samples.

Results

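The kinesin and dynein motor genes were read from a table of gene expression in the nucleus accumbens, the ventral part of the striatum, of C57BL/6 mice. Members were chosen by name alone: gene symbols that begin with Kif or Kifc and a digit, Klc and a digit, Dync1, Dync2, Dynll or Dynlt. The rule found 60 of 21540 records, which carry 59 symbols because Dynlt1b was listed under a pair of identifiers. Of these records 45 were kinesins or kinesin light chains and 15 were dynein genes. Cocaine was given intraperitoneally once a day for 7 days at 20 mg/kg, saline took its place in the control group, and per the labels both groups were taken 4 h later. The labels list 3 libraries per group and do not say whether a library was 1 animal or a pool. The authors' deposited table gives 1 value per group in FPKM (fragments scaled to transcript length and to library size), with no value per library, so no SD stands beside any level and the depth is unknown. Every level, p and q given here is from the authors' deposited table, which is also the source of each fold change unless it is said to be computed otherwise.

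Kinesins are ATP-driven motors that walk along microtubules, most of them toward the plus end, which in axons points to the terminal. Cytoplasmic dynein 1 walks the other way and brings endosomes, neurotrophin signals and spent organelles back to the cell body. Neurons depend on both because synapses lie far from the place where most proteins are made, and spiny neurons, the main cells of the accumbens, also sort receptors into dendrites with kinesins. Other kinesins work in the mitotic spindle or in cilia, and dynein 2 carries cargo inside cilia.

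After cocaine, 2 of the 53 members that the authors tested passed the deposited q < 0.05, both higher. These were Kif5a, a neuronal heavy chain of kinesin-1, the general anterograde motor, and Kif1a, the kinesin-3 that carries synaptic vesicle precursors. In the deposited table Kif5a stood at 265 FPKM after saline and 274 FPKM after cocaine, and Kif1a at 160 and 167 FPKM. Both rises were small, 3.34% for Kif5a and 4.27% for Kif1a. Over all 14959 tested records 1.23% passed that threshold and 0.521% passed it on the higher side, against 3.77% of the tested members, which is 2 records. Calls were more common at the level of Kif5a and Kif1a: of 657 tested records between 100 and 500 FPKM, 39 passed in either direction (5.94%). No dynein gene passed, with 0 of 14 tested.

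The sequences bear on which of these values belong to 1 gene. Every kinesin motor domain holds a loop that grips the phosphates of ATP, and the stretch around it is shown for the called gene Kif5a and its relative Kif5c. They are coding sequences of GENCODE mouse release M21, a later annotation than the authors', and are shown 5′ to 3′ with the 8 codons of the loop in capitals. They are bases 235 to 300 of each coding sequence.

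Kif5a: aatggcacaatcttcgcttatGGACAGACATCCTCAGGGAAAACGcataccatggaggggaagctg
Kif5c: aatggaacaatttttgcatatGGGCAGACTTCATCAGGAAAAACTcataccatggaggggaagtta

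Even in this conserved stretch Kif5a and Kif5c differed at 11 of 66 bases. The longest identical run anywhere in the coding sequences of Kif5a and Kif5c was 23 bases, gagaacaacctggaacagcttac. It was 17 bases for Kif5a and Kif5b. The loop was searched as in-frame codons for glycine, any 4 residues, glycine, lysine and then serine or threonine. It was found in all 41 kinesin motor genes and in none of the 4 light chain genes. Among 12 dynein genes with a coding sequence it was found in 5, which were Dync1h1, Dync2h1, Dync1li1, Dync1li2 and Dync2li1. A match is only a description of these letters.

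The Dynlt1 genes, which encode a light chain that dynein 1 uses to hold cargo, are the opposite case. The first 60 coding bases of the 4 copies in the annotation are shown because they bear on which records can be told apart, with differing bases in capitals.

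Dynlt1a: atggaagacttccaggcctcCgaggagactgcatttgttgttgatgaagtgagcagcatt
Dynlt1b: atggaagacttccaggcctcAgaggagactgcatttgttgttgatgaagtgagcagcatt
Dynlt1c: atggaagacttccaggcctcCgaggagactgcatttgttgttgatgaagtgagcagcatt
Dynlt1f: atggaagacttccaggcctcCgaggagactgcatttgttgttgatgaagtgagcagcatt

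Over all 339 coding bases, Dynlt1a, Dynlt1c and Dynlt1f were identical and Dynlt1b differed from them at 1 base. These sequences carry the annotation's symbols, which need not match those of the deposited records. By identifier, 1 record named Dynlt1b is Dynlt1a in the annotation. The other Dynlt1b record and the Dynlt1f record have no match there. Reads from these copies could therefore be divided among records, and the values of the 4 records named Dynlt1b, Dynlt1c and Dynlt1f are uncertain. The coding sequence of Dynlt1e was not compared. Among 1711 pairs of member coding sequences, 7 shared an identical run of 50 bases or more, the 6 pairs of Dynlt1 copies and the pair of Kifc1 and Kifc5b, whose longest run was 268 bases. No other pair did.

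The 3 kinesin-1 heavy chains were all higher in the cocaine group's deposited values, but only 1 passed. Kif5c had 301 FPKM after saline and 322 after cocaine, and Kif5b, the form found in most cell types, had 58.6 and 62.9 FPKM. The deposited log2 fold change, cocaine over saline, was 0.05 for Kif5a, 0.10 for Kif5b and 0.10 for Kif5c. Kif5a thus passed with the smallest difference of the 3. In the deposited test its p was 3.21e-07 and its q 8.12e-05, while p was 0.0296 for Kif5b (q = 0.894) and 0.0782 for Kif5c. Fold changes followed a trend with GC content and transcript length across the table, called the composition trend here. Net of that trend all 3 heavy chains stayed above 0. Centring on the table's median of -0.021 and rescaling, a shift of 0.015, each raise every fold change. Neither could therefore bring a value from above 0 to below it. In bulk tissue, fewer cells of a type and less RNA per cell cannot be told apart.

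**Figure D1:**
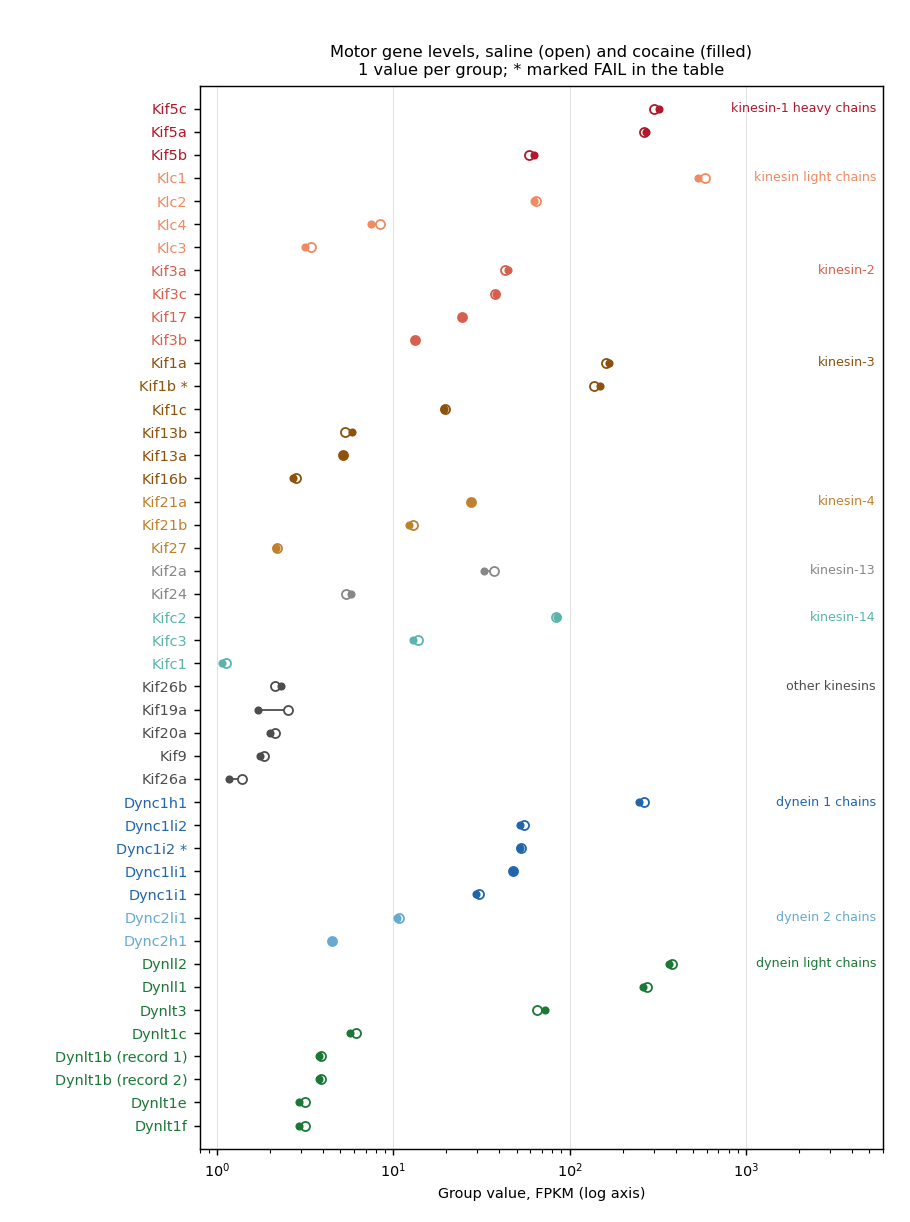
Group values in FPKM (log axis) of the 45 member records that reach 1 FPKM in the higher group, with saline as open and cocaine as filled circles, ordered by family. The circles of a gene mostly touch, and Klc1 is the highest at 586 and 534 FPKM.

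A deposited fold change and its p together imply a standard error, the absolute log2 fold change divided by the normal quantile of the two-sided p. By this measure Kif5a had an implied standard error of 0.0093 on the log2 scale, and Kif5c, at a slightly higher level, had 0.054. Of 657 tested records between 100 and 500 FPKM, only 3 had a smaller implied standard error than Kif5a, and the median of those records was 0.047. Kif1a had 0.016, with 27 of the 657 below it. The measure comes from the same p that made the calls, so a called gene with a small difference must have a small value. These ranks are therefore no evidence apart from the calls. The 39 called records of that range had a median of 0.019. The implied 95% interval of the log2 fold change was 0.029 to 0.066 for Kif5a, 0.0099 to 0.19 for Kif5b and -0.011 to 0.20 for Kif5c, so the 3 intervals overlapped. A difference between the heavy chains was not tested. Among all 184 called records, 1 had a smaller absolute log2 fold change than Kif5a and 10 had a smaller one than Kif1a.

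**Figure D2:**
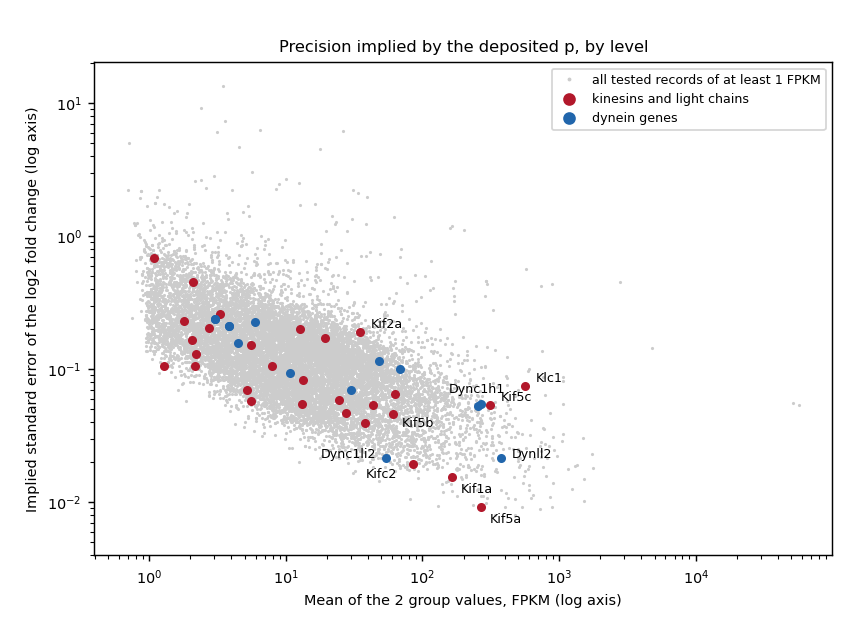
Implied standard error of the log2 fold change against the mean of both group values in FPKM (both axes log), for all tested records of at least 1 FPKM (grey), kinesins and light chains (red) and dynein genes (blue). Kif5a (0.0093) and Kif1a (0.016) lie at the lower edge, while Kif5c (0.054) and Dync1h1 (0.053) lie near the middle of records at their level.

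The kinesin light chains, which bind kinesin-1 heavy chains and hold many of its cargoes, stood the other way. Klc1, the neuronal form and the highest of all members, had 586 FPKM after saline and 534 after cocaine in the deposited table. Klc2 had 64.3 and 62.5 FPKM, Klc4 8.39 and 7.49, and Klc3 3.41 and 3.14. All 4 deposited log2 fold changes lay below 0, from -0.16 for Klc4 to -0.04 for Klc2, and 0 of 4 passed. The p of the deposited test was 0.0724 for Klc1 and 0.124 for Klc4. Net of the composition trend, Klc1 stood at -0.07 and Klc4 at -0.10, and Klc2 turned to 0.04. Klc3 shares 28.1% of its exonic bases with Ercc2 on the opposite strand, and the strand setting of the counting is not given in the sources used here.

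Summed over genes, heavy chains had 624 FPKM after saline and 658 after cocaine, and light chains had 662 and 607. The ratio of heavy to light chain FPKM was 0.943 after saline and 1.08 after cocaine, with no test. Kif5c made up 48.2% of heavy chain FPKM after saline and 48.9% after cocaine, Kif5a 42.4% and 41.6%, and Kif5b 9.39% and 9.55%. Klc1 alone made up 88.5% and 88.0% of light chain FPKM. These are levels per transcript length, and they describe RNA and not protein.

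The kinesin-3 genes include vesicle carriers. Kif1a passed the authors' deposited test with a log2 fold change of 0.06 (p = 0.000101, q = 0.0138) and an implied 95% interval of 0.030 to 0.091. Kif1b, whose isoforms carry mitochondria and synaptic vesicle precursors, had 138 FPKM after saline and 150 after cocaine, but the table marks it FAIL. Its deposited log2 fold change of 0 and p of 1 are therefore not measurements. The group values alone give a log2 ratio of 0.12 with no test, larger than that of Kif1a. The next smallest p of the family was that of Kif13b, which guides membrane proteins and polarity factors, at 5.28 and 5.82 FPKM (log2 fold change by the authors' deposited table: 0.14, p = 0.0171, q = 0.659). Kif13a (5.197 and 5.153 FPKM), Kif16b (2.80 and 2.69) and Kif1c (19.5 and 19.4) lay within 0.06 of 0 on the log2 scale of the deposited table. Kif14, a mitotic member, was not tested, at 0.069 and 0.060 FPKM.

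The kinesin-2 genes all lay within 0.06 of 0 on the deposited log2 scale. Kif3a and Kif3b form the motor of the heterotrimeric kinesin-2 with Kifap3, and Kif17 is known for carrying NMDA receptor vesicles into dendrites. Kif3a had 42.9 FPKM after saline and 44.7 after cocaine, Kif3c 37.7 and 38.1, Kif17 24.6 and 24.5, and Kif3b 13.2 and 13.2. Their deposited log2 fold changes ran from -0.0039 for Kif17 to 0.06 for Kif3a, and none of the 4 passed. For Kif3c the implied 95% interval was -0.066 to 0.089, the narrowest of the 4, and for Kif3a it was -0.047 to 0.17. Net of the composition trend all 4 lay above 0, with Kif3a at 0.09, Kif17 at 0.06, Kif3c at 0.03 and Kif3b at 0.0046. Kif3c shares 35.3% of its exonic bases with an antisense transcript.

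The kinesin-4 members of neurons, Kif21a and Kif21b, had 27.6 and 27.4 FPKM and 12.99 and 12.23 FPKM in the deposited table, and neither passed. Kifc2, a neuronal kinesin-14, had 83.9 FPKM after saline and 85.3 after cocaine. Its log2 fold change was 0.02 in the authors' deposited table (p = 0.232) and 0.10 net of the composition trend. Kif2a, a kinesin-13 that takes microtubules apart at their ends and limits axon branching, had 37.2 and 32.5 FPKM. It had the third most negative deposited log2 fold change among members of at least 1 FPKM, at -0.19, but with an implied standard error of 0.19 and a p of 0.309 it did not pass. Kif2a shares 19.2% of its exonic bases with Dimt1 on the opposite strand.

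Of the 14 tested dynein records 12 lay below 0 and 2 above, with a median deposited log2 fold change of -0.056, and 0 passed. Over all 12984 tested records of at least 1 FPKM, 59.2% lay below 0 and the median was -0.021. The dynein count includes 5 Dynlt1 records. The 4 named Dynlt1b, Dynlt1c and Dynlt1f carry symbols whose annotated copies share coding sequence, and are not to be read as separate observations. Net of the composition trend, 9 of the 11 records that could be matched lay below 0 and their median was -0.019.

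Among the chains of dynein 1, Dync1h1, the heavy chain that holds the motor, had 263 FPKM after saline and 247 after cocaine. Its log2 fold change in the authors' deposited table was -0.09 (p = 0.0843), with an implied 95% interval of -0.20 to 0.012. Dync1li2, a light intermediate chain that links the motor to its adaptors, had 55.1 and 52.5 FPKM. It had the smallest p of the dynein genes, 0.00150, with a deposited log2 fold change of -0.07, and a q of 0.119 that did not pass. The other light intermediate chain, Dync1li1, had 47.7 and 48.0 FPKM (log2 fold change by the authors' deposited table: 0.0086, p = 0.940). Their implied 95% intervals, -0.11 to -0.026 and -0.22 to 0.23, overlapped. The intermediate chain Dync1i1, which is mainly neuronal, had 30.7 and 29.4 FPKM in the deposited table and did not pass. Its widely expressed relative Dync1i2 had 52.9 and 52.4 FPKM and is marked FAIL, so its deposited log2 fold change of 0 is no measurement. An antisense transcript shares 7.08% of the exonic bases of Dync1li2.

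Dynll1 and Dynll2 encode small dimeric proteins that bind dynein intermediate chains and many other partners, including postsynaptic scaffolds and myosin V. Their coding sequences differed at 50 of 267 bases, and the first 60 are shown to give the spacing of such differences. The rest of the transcripts was not compared, so how fully reads of this pair can be separated is not known. Differing bases are in capitals.

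Dynll1: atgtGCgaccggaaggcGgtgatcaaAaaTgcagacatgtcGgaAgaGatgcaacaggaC
Dynll2: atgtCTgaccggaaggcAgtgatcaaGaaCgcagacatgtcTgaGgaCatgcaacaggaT

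Dynll2, the highest dynein gene, had 381 FPKM after saline and 369 after cocaine, and Dynll1 had 274 and 260.5 FPKM. The log2 fold change in the authors' deposited table was -0.05 for Dynll2 (p = 0.0283, q = 0.873) and -0.07 for Dynll1 (p = 0.176), and neither passed. That of Dynll2 was -0.0027 net of the composition trend. Dynlt3, the other Tctex-type light chain, was the exception in direction among the member light chains, at 65.7 and 72.4 FPKM. Its deposited log2 fold change of 0.14 was the largest among members of at least 1 FPKM, with a p of 0.168 that did not pass. The Dynlt1 records lay between 2.93 and 6.15 FPKM. Both records named Dynlt1b hold the same values, 3.87 and 3.77 FPKM, and Dynlt1e and Dynlt1f have the same cocaine value, 2.93 FPKM, and nearly the same saline value. The motor of cilia, dynein 2, was low, with Dync2li1 at 10.8 and 10.5 FPKM and Dync2h1 at 4.50 and 4.48 FPKM.

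**Figure D3:**
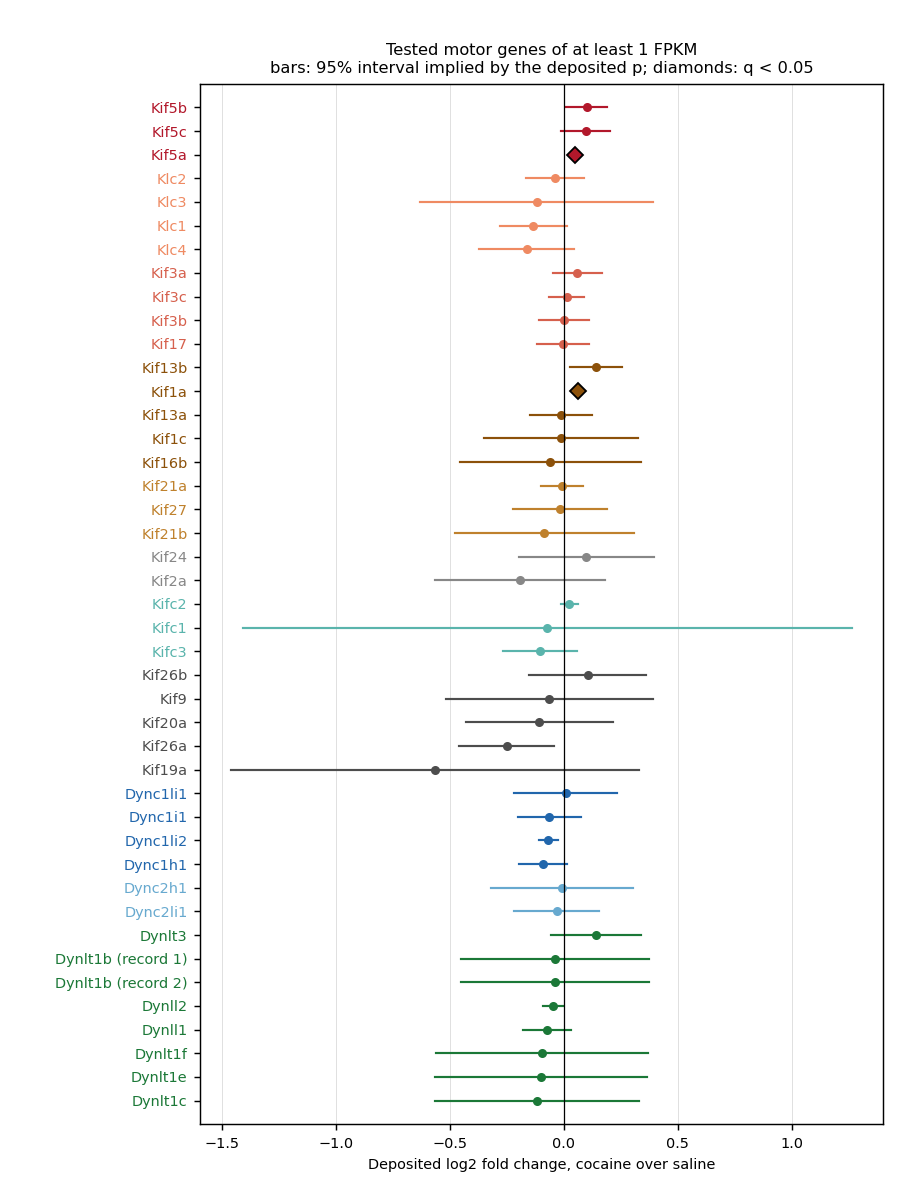
Deposited log2 fold change, cocaine over saline, of the 43 tested member records of at least 1 FPKM, by family, with bars for the 95% interval implied by the deposited p and diamonds for q < 0.05. Kif5a (0.05) and Kif1a (0.06) are the only diamonds, and all 3 kinesin-1 heavy chains lie above 0 while all 4 light chains lie below.

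Mitotic kinesins were near the floor. Of the 12 spindle motors on the list, 9 were tested, 8 of them below 0 and 1 above, and 0 passed. Kif11, the kinesin-5 that pushes spindle poles apart, had 0.580 FPKM after saline and 0.365 after cocaine, with a log2 fold change in the authors' deposited table of -0.67 (p = 0.00427, q = 0.261). Kif22 had 0.793 and 0.636 FPKM, Kif4 0.399 and 0.306, and Kif18a, the only one above 0, 0.286 and 0.383. Kif20a was the highest at 2.14 and 1.98 FPKM, but 29.3% of its exonic bases overlap Cdc23 on the opposite strand. Markers of dividing cells lay lower in the same comparison: all 9 tested of 10 were below 0 in the deposited table, and the 10 summed to 7.10 FPKM after saline and 4.68 after cocaine. None of them was at 0, and 0 of 9 passed. Neuroblast markers summed to 34.5 and 28.1 FPKM, of which Dlx1 alone gave 15.2 and 12.2. Of these 5 markers 4 lay below 0, with Sox11 and Cd24a called lower, while Dcx lay above 0 at 4.51 and 4.60 FPKM. The part of these cells in the mitotic motor values was not tested.

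Of the 11 motors on the list for cilia 8 lay below 0 in the deposited table, 3 above, and 0 passed. Of the 9 of at least 1 FPKM, 6 lay below 0 (66.7%), against 59.2% of all such records. Net of the composition trend 5 of these 9 lay below 0 and 4 above. Kif19a, which shortens microtubules at ciliary tips, had 2.51 FPKM after saline and 1.70 after cocaine. Its deposited log2 fold change of -0.57 was the most negative among members of at least 1 FPKM, with an implied standard error of 0.46 and a p of 0.215 that did not pass. Kif9 had 1.83 and 1.75 FPKM, Kif27 2.18 and 2.16, and Kif6 0.734 and 0.673. Of 9 ependymal and ciliated cell markers 6 were matched and were all below 0, summing to 10.6 and 9.17 FPKM, with none at 0 and 0 passing. Their part in the values of Kif19a was not tested. Kif26a, an atypical kinesin that regulates growth factor signalling, had 1.39 and 1.17 FPKM (log2 fold change by the authors' deposited table: -0.25, p = 0.0181, q = 0.680). Its relative Kif26b had 2.14 and 2.30 FPKM and Kif24, known for its action at centrioles, 5.38 and 5.76.

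In all, 15 members were under 1 FPKM in both groups, of which 10 were tested and 5 were not. The 5 not tested were Kif2b, listed at 0 in both groups, Kif12, listed at 0 after saline, and Kif14, Kif18b and Kif20b. At an unadjusted p under 0.05 there were 8 members, 15.1% of those tested, against 5.76% of all tested records. They were Kif5a, Kif1a, Kif13b and Kif5b above 0 and Dync1li2, Kif11, Kif26a and Dynll2 below 0. Among 43 tested member records of at least 1 FPKM, 41 lay within 0.2 of 0 (95.3%, against 89.4% of all such records), and the median was -0.038.

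The GC content and length of transcripts moved with the fold changes across the whole table. Over 12639 records Spearman's rho between GC content and log2 fold change was -0.30, and between length and log2 fold change 0.18. Over the 40 members that could be matched these were -0.31 and 0.28. These are descriptions across genes of the same libraries. Removing this trend left Kif5a at 0.06, Kif5b at 0.06, Kif5c at 0.09 and Kif1a at 0.11. It moved Klc1 from -0.13 to -0.07 and the median of the members to -0.0092. The part of base composition and length in the differences was not tested further.

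**Figure D4:**
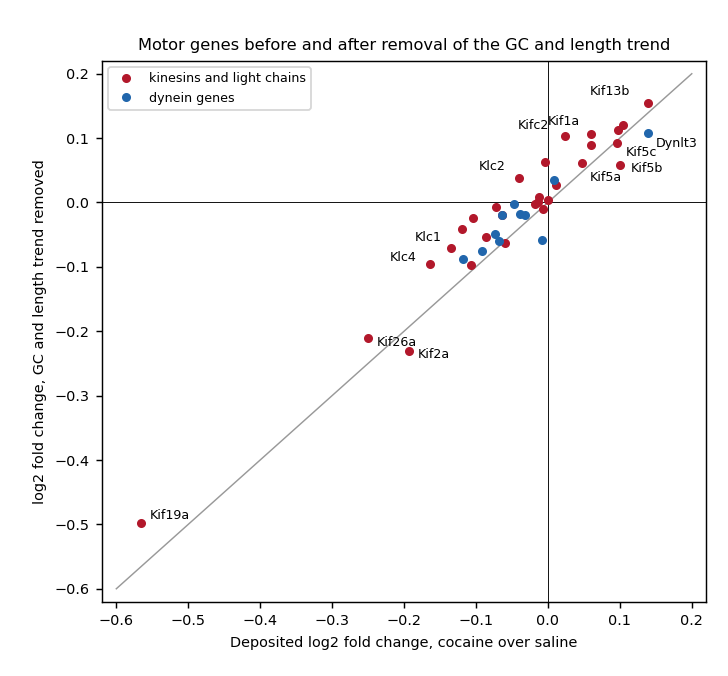
Deposited log2 fold change of 40 members against the log2 fold change after removal of the composition trend, kinesins and light chains in red and dynein genes in blue, with the line of equality in grey. Kif5a, Kif5b, Kif5c and Kif1a stay above 0 on both axes, and Klc2 moves from -0.04 to 0.04.

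The genes that work with these motors were counted on a list of 50 symbols covering dynactin, dynein regulators and kinesin adaptors. Dynlrb1 and Dynlrb2, light chains of dynein itself that the naming rule leaves out, were placed among the dynein regulators. In the deposited table none was called higher, 1 was called lower, 48 did not pass and Mapk8ip3 is marked FAIL. Over all tested records 1.23% were called in either direction. Of the 49 tested, 19 lay above 0 and 30 below, and the median log2 fold change of the 48 of at least 1 FPKM was -0.019. Of those 48, 62.5% lay below 0, against 59.2% of all such records, whose median was -0.021. The called gene was Hap1, the huntingtin-associated protein that links kinesin-1 and dynactin to vesicles, from 129 to 117 FPKM (log2 fold change -0.14, p = 6.23e-05, q = 0.00940 in the authors' deposited table). Net of the composition trend Hap1 stood at -0.06. Of the 12 dynactin genes 9 lay below 0 with none called, and Actr1a (66.5 and 63.8 FPKM, p = 0.0170) and Dctn2 (83.8 and 79.9 FPKM, p = 0.0173) had the smallest p in the authors' deposited test. Clstn1, a cargo receptor that binds kinesin light chains, had 244 and 236 FPKM (p = 0.0190) and did not pass the authors' deposited test. Net of the composition trend Actr1a stood at 0.0012 and Clstn1 at 0.0027, both turned in sign, Dctn2 stood at -0.04, and dynactin had 7 genes below 0 and 5 above. The list of dynein regulators had 9 of 15 above 0, among them Ndel1 at 40.1 and 45.5 FPKM (p = 0.0314) and Hook3 at 7.02 and 8.04 FPKM (p = 0.0377), neither of which passed the authors' deposited test. Of the light chains on that list, Dynlrb1 lay above 0 at 165 and 171 FPKM. Dynlrb2 lay below 0 at 1.34 and 1.02 FPKM, and neither light chain was called.

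The labelled tissue was checked on marker lists. The 7 spiny neuron markers ranged from 65.04 FPKM (Drd1a) to 1531 FPKM (Penk) after saline, with 0 calls in the deposited table. Of their deposited log2 fold changes 6 lay below 0 and 1 above, the most negative being Ppp1r1b at -0.060. The 4 general neuron markers lay within 0.06 of 0, with 3 below and 1 above, the most negative being Tubb3 at -0.052. Rbfox3 stood at 0.0027, Snap25 at -0.0022 and Syt1 at -0.0065. Net of the composition trend 3 spiny neuron markers lay below 0 and 4 above, and 2 general neuron markers below and 2 above. Ppp1r1b then stood at 0.0076 and Tubb3 at 0.010. Kif5a and Kif1a, which were called higher, had deposited log2 fold changes of 0.05 and 0.06, and 0.06 and 0.11 net of that trend. Oligodendrocyte, astrocyte and microglia markers were present in both groups with 0 calls. Endothelial markers summed to 21.1 FPKM after saline and 15.4 after cocaine, with Cldn5 called lower, and of 5 choroid plexus markers 3 lay above 0 and 2 below. The called one was Ttr, higher at 0.668 and 10.8 FPKM. Kcnj13 (0.066 and 0.581 FPKM) and Folr1 (0.234 and 0.618) also lay above 0, near the floor and not called. Clic6 had 6.42 and 5.65 FPKM and Kl 1.46 and 1.42, both below 0. The 5 choroid plexus markers summed to 8.85 FPKM after saline and 19.1 after cocaine. The part of any of these cell types in the motor gene values was not tested.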

How the data were processed

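RNA from nucleus accumbens was sequenced in 3 saline and 3 cocaine libraries. TopHat2 2.0.6, Cufflinks 2.0.2 and build NCBIM37 are named in the submitters' processing notes. Settings, annotation, read length and strand were not given in the sources used here. The authors deposited 1 FPKM value per group and record; the unit follows from the table's layout and is not written in it. Per record the authors deposited q-values and p-values beside log2 fold changes, and how their test estimated the spread between libraries is not given. Labels do not say that libraries are separate animals, so the p-values may measure technical spread only. The protocol text describes cocaine injections for saline libraries too, so groups follow the treatment label.

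Records of status OK counted as tested (14959) and were called at q < 0.05; the set of records over which the authors adjusted the q-values is not given. Benjamini-Hochberg adjustment over all tested records did not return them: it gave 6.96e-05 for Kif5a against the deposited q-value of 8.12e-05, and 199 calls in place of 184. Medians use tested records whose higher group value was 1 FPKM or more. The implied standard error, added after the data were seen, assumes a two-sided normal test. GC content and length are those of the longest GENCODE M21 transcript by Ensembl identifier, and the composition trend is the median of 10 GC by 10 length cells. The build differs, so no genome coordinates are given. Python 3.11.15, numpy 2.4.6, pandas 2.3.3 and scipy 1.17.1 were used, and the code was tested on simulated data. Named genes are members past q < 0.05 or marked FAIL, the 15 highest, the 5 largest differences in each direction at 1 FPKM or more, the 8 smallest p-values and the printed sequences; other transport genes are the called one and the 4 smallest p-values. The remaining genes are named as family or marker examples, chosen after their values were seen. The members and lists were chosen with earlier results of these data known. A test per library was fixed for the case that the table held such values and was not run. Alternatives covered the threshold, adjustment, minimum FPKM, pseudocount, scaling and trend.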

Additional observations from a re-analysis of the deposited data

How the results depend on the processing

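The count of 2 members past the threshold was 1 at q < 0.01, where Kif1a was lost, and 8 at an unadjusted p under 0.05. It was 2 at q < 0.1 and with Benjamini-Hochberg adjustment recomputed over all tested records or over those of at least 1 or 5 FPKM. The single called gene of the other transport list became 6 of 49 tested at an unadjusted p under 0.05, which 5.76% of all tested records reached. The median log2 fold change of tested members, -0.038, was -0.012 at 5 FPKM or more, -0.017 when centred on all records, -0.023 when rescaled without mitochondrial and the 2 highest records, -0.0092 net of the composition trend and -0.013 for kinesins and light chains alone. It was -0.018 without the Dynlt1 records, Kifc1 and Kifc5b, an alternative chosen after seeing the data. It lay below 0 under each of these alternatives. Of 26 named records with a matched transcript, 3 (Klc2, Actr1a and Clstn1) turned sign net of that trend and 8 moved by more than their implied standard error. The called genes Kif5a, Kif1a and Hap1 were all among those 8, and no called gene turned. Only group values were given, so no replicate could be left out. No paired analysis was possible because the table holds no value per library.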
